A study of Mus musculus with 8 samples.

Results

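The genes described here are 10 negative-feedback regulators of mitogen-activated protein kinase (MAPK) signaling, taken by symbol from the 55487 gene identifiers in the files. They comprise the dual-specificity phosphatases Dusp1, Dusp2, Dusp4, Dusp5 and Dusp6, the Sprouty genes Spry1, Spry2 and Spry4, and the Sprouty-related genes Spred1 and Spred2. Tacrolimus (FK506) is a calcineurin inhibitor that blocks activation of NFAT transcription factors below the T cell receptor, and the study asked how intermittent dosing affects T cells in a tumor. The tacrolimus group held 4 C57BL/6 mice dosed intraperitoneally at 3 mg/kg every 5 days, and the vehicle group held 4 C57BL/6 mice given vehicle on the same schedule. Every mouse bore a melanoma under the skin grown from B16F10 cells, and dosing started once the tumor measured about 50 mm3, on day 7 to 9 of growth. At 6 days into dosing the tumor was removed, cells were sorted as CD8+ lymphocytes, and their RNA gave 1 library for each mouse.

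MAPK cascades carry signals from antigen, growth factor and cytokine receptors to the ERK, JNK and p38 kinases, and the kinases induce their own brakes. The dual-specificity phosphatases remove phosphate from both the threonine and the tyrosine of the kinase activation loop. Sprouty and Spred proteins act higher up, near the receptor, and Spred proteins bring the Ras GTPase-activating protein neurofibromin to the membrane. In T cells several of these genes are induced within hours of receptor stimulation, and in melanocytic cells their transcripts are widely read as a record of ERK activity.

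The libraries held far more melanoma than T cell transcript. The 15 melanoma markers summed to between 23263 and 28530 FPKM in tacrolimus libraries and between 19685 and 35425 FPKM in vehicle libraries, where FPKM is fragments scaled to transcript length and library depth. The 20 T cell markers summed to between 77.0 and 563 FPKM in tacrolimus libraries and between 565 and 2720 FPKM in vehicle libraries. The 20 macrophage markers summed to between 1154 and 1588 FPKM in tacrolimus libraries and between 1573 and 3984 FPKM in vehicle libraries. No marker of these 3 lists was at 0 in any library. The 10 natural killer cell markers summed to between 101 and 406 FPKM in tacrolimus libraries and between 397 and 1944 FPKM in vehicle libraries. Vehicle replicate 1 had the highest mean marker level of the T cell, macrophage, natural killer cell, dendritic cell, neutrophil and B cell lists and the lowest of the melanoma list. In such mixed samples, fewer cells of a type and less RNA per cell cannot be told apart.

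Dusp1, Dusp2 and Dusp5 encode phosphatases of the nucleus that are induced by the kinases they switch off. They had lower means in tacrolimus than in vehicle libraries, and vehicle replicate 1 was the highest library for each of them. Upstream sequence of each is shown, from 250 to 51 bases before the RefSeq start, with that of Dusp6, because the first 3 shared a high value in vehicle replicate 1 and Dusp6 did not. Sequences run 5′ to 3′ on the gene's strand in build GRCm38.p6, and capitals mark matches to the searched motifs other than the GC box. The stretch of Dusp1 is chr17:26508523-26508722 on the minus strand, that of Dusp2 chr2:127335909-127336108, that of Dusp5 chr19:53528895-53529094 and that of Dusp6 chr10:99262981-99263180, the last 3 on the plus strand.
Dusp1: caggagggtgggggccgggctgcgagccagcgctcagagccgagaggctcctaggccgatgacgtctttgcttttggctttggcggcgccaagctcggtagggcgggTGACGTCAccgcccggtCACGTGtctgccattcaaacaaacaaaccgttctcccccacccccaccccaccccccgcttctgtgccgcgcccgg
Dusp2: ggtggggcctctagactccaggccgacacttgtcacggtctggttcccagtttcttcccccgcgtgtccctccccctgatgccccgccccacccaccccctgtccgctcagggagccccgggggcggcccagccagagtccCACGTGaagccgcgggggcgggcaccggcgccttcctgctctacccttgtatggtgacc
Dusp5: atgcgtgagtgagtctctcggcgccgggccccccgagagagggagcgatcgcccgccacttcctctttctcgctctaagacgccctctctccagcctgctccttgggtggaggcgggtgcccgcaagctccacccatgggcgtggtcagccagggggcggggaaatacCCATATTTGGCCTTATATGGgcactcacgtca
Dusp6: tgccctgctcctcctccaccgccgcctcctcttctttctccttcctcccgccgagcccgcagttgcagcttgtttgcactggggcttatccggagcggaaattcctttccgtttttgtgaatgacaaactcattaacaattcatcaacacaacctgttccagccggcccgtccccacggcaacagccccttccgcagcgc

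RefSeq promoters were found for 8 of the 10 genes, and 7 motifs were searched on both strands of the 250 bases before the start. The window of Dusp1 held a cyclic AMP response element, TGACGTCA, which 1.55% of all 32851 promoter windows of the same length held. Both Dusp1 and Dusp2 held the E-box CACGTG, found in 6.02% of windows. Dusp5 held 2 adjoining CArG boxes, the site bound by serum response factor, on the bases 82 to 63 before the start, and 1.47% of windows held at least 1. None of the 8 windows held the AP-1 site TGANTCA (6.75% of windows). None held the strings searched for ETS factors, CCGGAA (12% of windows), or for NFAT, TGGAAA (18.6% of windows). Only these exact letters were searched, so shorter or variant ETS and NFAT sites may be present. The GC box GGGCGG, which overlapped no other motif match, was in 6 of the 8 windows and in 32.7% of all windows. The GC content of the 8 windows ran from 56.0% (Spred2) to 70.8% (Spred1), against a median of 52.4% over all windows. The shares of all windows were not matched for GC content, so they do not show enrichment of a motif. A match describes these letters in this window and is not evidence of binding.

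Dusp1 (ENSMUSG00000024190; GRCm38 chromosome 17, 26505590 to 26562128, minus strand) encodes a nuclear phosphatase of ERK, JNK and p38 and is an immediate-early gene. Its level was 71.8, 59.9, 55.9 and 75.8 FPKM in tacrolimus replicates 1 to 4, against 334, 74.3, 90.5 and 114 FPKM in vehicle replicates 1 to 4. The highest tacrolimus library lay just above the lowest vehicle library, so the groups overlapped by 1 library on each side. The means were 65.8 ± 9.48 FPKM with tacrolimus and 153 ± 122 FPKM with vehicle (SD, n = 4 each), and the vehicle mean without replicate 1 was 93.0 ± 20.1 FPKM. The log2(FPKM + 1) scale, used throughout, understates changes of low genes, and on it the difference was -0.95 (SE 0.39, limma adjusted p = 0.262), or -0.48 without vehicle replicate 1. Exons annotated to Dusp1 overlap those of Ergic1 on the other strand, at 39.3 to 57.0 FPKM with tacrolimus and 46.1 to 75.8 FPKM with vehicle. Whether the counting used strand is not given in the sources used here, so a part of either value may belong to the other gene.

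Dusp2 (ENSMUSG00000027368; chromosome 2, 127336159 to 127338376, plus strand) encodes a nuclear phosphatase best known from activated lymphocytes and myeloid cells. Its level was 51.6, 31.4, 25.9 and 42.6 FPKM in tacrolimus replicates 1 to 4, against 182, 47.9, 56.0 and 67.7 FPKM in vehicle replicates 1 to 4. Only tacrolimus replicate 1 reached the vehicle range. The means were 37.9 ± 11.5 FPKM with tacrolimus and 88.5 ± 63.1 FPKM with vehicle (SD, n = 4 each), with 57.2 ± 10.0 FPKM for vehicle without replicate 1. The log2 difference was -1.03 (SE 0.39, limma adjusted p = 0.232), or -0.62 without vehicle replicate 1.

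Dusp5 (ENSMUSG00000034765; chromosome 19, 53529109 to 53542431, plus strand) encodes a nuclear phosphatase selective for ERK. Its level was 12.5, 5.58, 6.86 and 9.86 FPKM in tacrolimus replicates 1 to 4, against 56.6, 14.1, 11.8 and 20.5 FPKM in vehicle replicates 1 to 4. Tacrolimus replicate 1 lay above vehicle replicate 3, and the other tacrolimus libraries lay below every vehicle library. Of the 10 genes it had the log2 difference farthest from 0, at -1.24 (SE 0.44, limma adjusted p = 0.218), or -0.78 without vehicle replicate 1. The means were 8.69 ± 3.09 FPKM with tacrolimus and 25.7 ± 20.9 FPKM with vehicle (SD, n = 4 each), with 15.4 ± 4.51 FPKM for vehicle without replicate 1. An antisense gene that overlaps its exons, AC137853.2, was at no more than 1.42 FPKM in any library.

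Dusp4 and Dusp6 differed from those 3 genes in where vehicle replicate 1 stood. Dusp6 (ENSMUSG00000019960; chromosome 10, 99263231 to 99267489, plus strand) encodes the cytoplasmic ERK-selective phosphatase. It was at 50.5, 50.6, 46.7 and 65.0 FPKM in tacrolimus replicates 1 to 4, against 59.3, 95.7, 76.0 and 101 FPKM in vehicle replicates 1 to 4. Vehicle replicate 1 was here the lowest vehicle library, and only tacrolimus replicate 4 lay above it. The means were 53.2 ± 8.05 FPKM with tacrolimus and 82.9 ± 19.0 FPKM with vehicle (SD, n = 4 each). The log2 difference of -0.61 (SE 0.19, limma adjusted p = 0.195) had the smallest p of the 10 genes, and it was -0.76 without vehicle replicate 1, where the groups did not overlap.

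Dusp4 (ENSMUSG00000031530; chromosome 8, 34807297 to 34819894, plus strand) encodes a nuclear phosphatase that acts on ERK and JNK. It was at 32.2, 32.6, 29.4 and 31.7 FPKM in tacrolimus replicates 1 to 4, against 31.2, 46.3, 40.6 and 38.3 FPKM in vehicle replicates 1 to 4. The 4 tacrolimus libraries lay close together, and vehicle replicate 1 lay among them. The means were 31.5 ± 1.45 FPKM with tacrolimus and 39.1 ± 6.27 FPKM with vehicle (SD, n = 4 each), and tacrolimus minus vehicle came to -0.29 on the log2 scale (SE 0.15, limma adjusted p = 0.321). After median-of-ratios scaling this was -0.075.

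**Figure D1:**
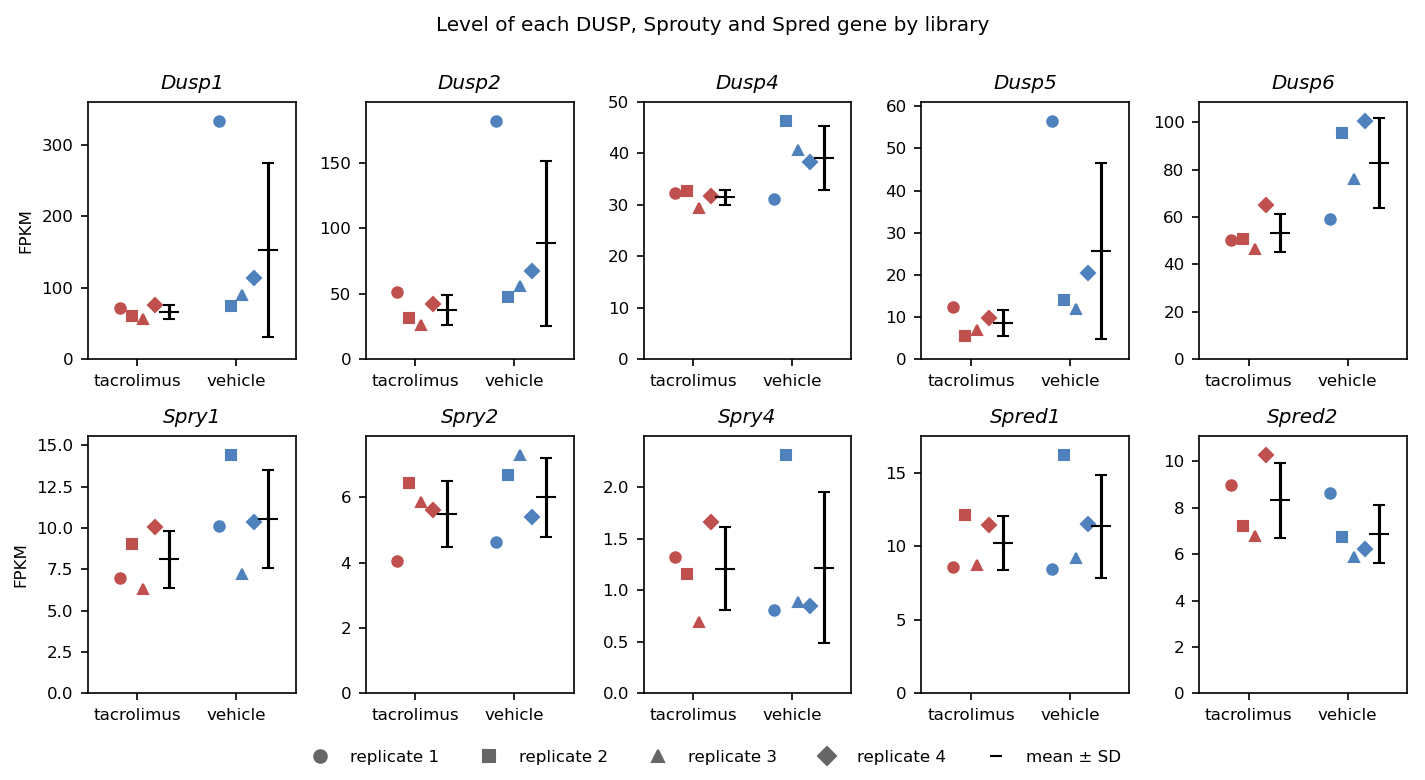
FPKM (vertical axes, from 0) of each gene in the 4 tacrolimus libraries (left, red) and the 4 vehicle libraries (right, blue), with marker shapes for the replicate and black marks for mean ± SD. Vehicle replicate 1 stands far above the rest for Dusp1 (334 FPKM), Dusp2 (182 FPKM) and Dusp5 (56.6 FPKM), and lies low in the vehicle group for Dusp4 (31.2 FPKM) and Dusp6 (59.3 FPKM).

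The Sprouty genes encode inhibitors of the Ras-ERK path below receptor tyrosine kinases, and none of them passed the test. Spry1 (ENSMUSG00000037211; chromosome 3, 37639947 to 37644598, plus strand), whose product also acts in lymphocytes, was at 7.00, 9.01, 6.33 and 10.1 FPKM in tacrolimus replicates 1 to 4, against 10.2, 14.4, 7.24 and 10.4 FPKM in vehicle replicates 1 to 4. Vehicle replicate 2 was the highest library and vehicle replicate 3 lay inside the tacrolimus range. The means were 8.11 ± 1.74 FPKM with tacrolimus and 10.6 ± 2.95 FPKM with vehicle (SD, n = 4 each), and the log2 scale gave -0.33 (SE 0.22, limma adjusted p = 0.450). This was -0.18 without vehicle replicate 2 and -0.13 after median-of-ratios scaling.

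Spry2 (ENSMUSG00000022114; chromosome 14, 105891947 to 105896819, minus strand) was at 4.05, 6.43, 5.85 and 5.62 FPKM in tacrolimus replicates 1 to 4, against 4.64, 6.66, 7.29 and 5.39 FPKM in vehicle replicates 1 to 4. The ranges nearly coincided, and replicate 1 was the lowest library in both groups. Its log2 difference of -0.11 (SE 0.20, limma adjusted p = 0.794) turned to 0.082 after median-of-ratios scaling and to 0.0087 without tacrolimus replicate 1. Spry4 (ENSMUSG00000024427; chromosome 18, 38586247 to 38601415, minus strand) was the lowest of the 10 genes, at 1.32, 1.16, 0.69 and 1.66 FPKM in tacrolimus replicates 1 to 4, against 0.81, 2.31, 0.89 and 0.85 FPKM in vehicle replicates 1 to 4. Vehicle replicate 2 lay above all other libraries and the other 3 vehicle libraries lay inside the tacrolimus range. The Spry4 difference of 0.026 (SE 0.27, limma adjusted p = 0.968) turned to -0.054 without vehicle replicate 1, -0.033 without vehicle replicate 3 and -0.044 without vehicle replicate 4. An FPKM of 1 stands for an estimated 15.6 to 19.4 fragments per kilobase of transcript, and the annotated Spry4 transcript has 4755 bases. Its levels lay close to the minimum of 1 FPKM used for testing.

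The Spred genes encode Sprouty-related proteins with an EVH1 domain. Spred1 (ENSMUSG00000027351; chromosome 2, 117121374 to 117182279, plus strand) was at 8.56, 12.1, 8.71 and 11.5 FPKM in tacrolimus replicates 1 to 4, against 8.44, 16.2, 9.22 and 11.5 FPKM in vehicle replicates 1 to 4. Vehicle replicate 2 was the highest library, and the other 3 vehicle libraries lay within or just below the tacrolimus range. Its log2 difference was -0.11 (SE 0.22, limma adjusted p = 0.804), which turned to 0.091 after median-of-ratios scaling and to 0.060 without vehicle replicate 2. Spred2 (ENSMUSG00000045671; chromosome 11, 19924375 to 20024026, plus strand) was at 8.99, 7.20, 6.77 and 10.3 FPKM in tacrolimus replicates 1 to 4, against 8.64, 6.75, 5.87 and 6.22 FPKM in vehicle replicates 1 to 4. All 4 tacrolimus libraries lay above vehicle replicates 2, 3 and 4, and vehicle replicate 1 lay among the tacrolimus libraries. With means of 8.31 ± 1.62 FPKM with tacrolimus and 6.87 ± 1.23 FPKM with vehicle (SD, n = 4 each), Spred2 had the largest difference toward tacrolimus of the 10 genes. That log2 difference was 0.24 (SE 0.19, limma adjusted p = 0.513), and 0.43 after median-of-ratios scaling.

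In limma none of the 10 genes reached an adjusted p under 0.05, and 0% of the 13032 genes tested did. All 10 passed the minimum of 1 FPKM in at least 4 libraries, Spry4 through 3 tacrolimus libraries and 1 vehicle library. At an unadjusted p under 0.05, Dusp1, Dusp2, Dusp5 and Dusp6 were lower in tacrolimus libraries, against 15.8% of all genes tested, and none of the 10 was higher, against 1.6%. The groups overlapped for each of the 10 genes, where 10.2% of all genes tested were lower and 0.767% higher without overlap. The mean of log2(FPKM + 1) was lower with tacrolimus for 8 of the 10 genes and for 75.7% of all genes, so a lower mean was the common case. The median log2 difference was -0.31 for the 10 genes and -0.19 for all genes tested. Relative to that median of all genes, Dusp5 lay at -1.05, Dusp2 at -0.84, Dusp1 at -0.75 and Dusp6 at -0.42, Dusp4, Spry1, Spry2 and Spred1 between -0.13 and 0.088, Spry4 at 0.22 and Spred2 at 0.43.

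The number of the 10 genes lower at an unadjusted p under 0.05 depended on the scaling. With median-of-ratios scaling, which put the median of all genes at 0.0001, Dusp6 was the gene of the 10 that was lower at an unadjusted p under 0.05, at -0.39 (SE 0.13), against 5.73% of all genes, and Spred2 was higher at that p, against 5.46%. Dusp1 then stood at -0.73 (SE 0.45), Dusp2 at -0.82 (SE 0.44) and Dusp5 at -1.04 (SE 0.49), with limma adjusted p values of 0.538, 0.491 and 0.450. With that scaling and without vehicle replicate 1 they stood at -0.22 (SE 0.19), -0.35 (SE 0.25) and -0.54 (SE 0.29), while Dusp6 was at -0.50 (SE 0.11). In that setting Dusp6 was lower and Spred2 higher at an unadjusted p under 0.05, against 4.8% and 6.96% of all genes. With upper-quartile scaling Dusp5 was the lower gene at that p and Spred2 the higher one, against 5.29% and 5.72% of all genes, and Dusp6 missed it at -0.36 (SE 0.16). Without vehicle replicate 1, in the values as deposited, the 5 phosphatase genes were lower at an unadjusted p under 0.05, against 19.3% of all genes. Dusp4 and Dusp6 were then lower and Spred2 higher without overlap, against 19.1% and 1.61% of all genes.

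**Figure D2:**
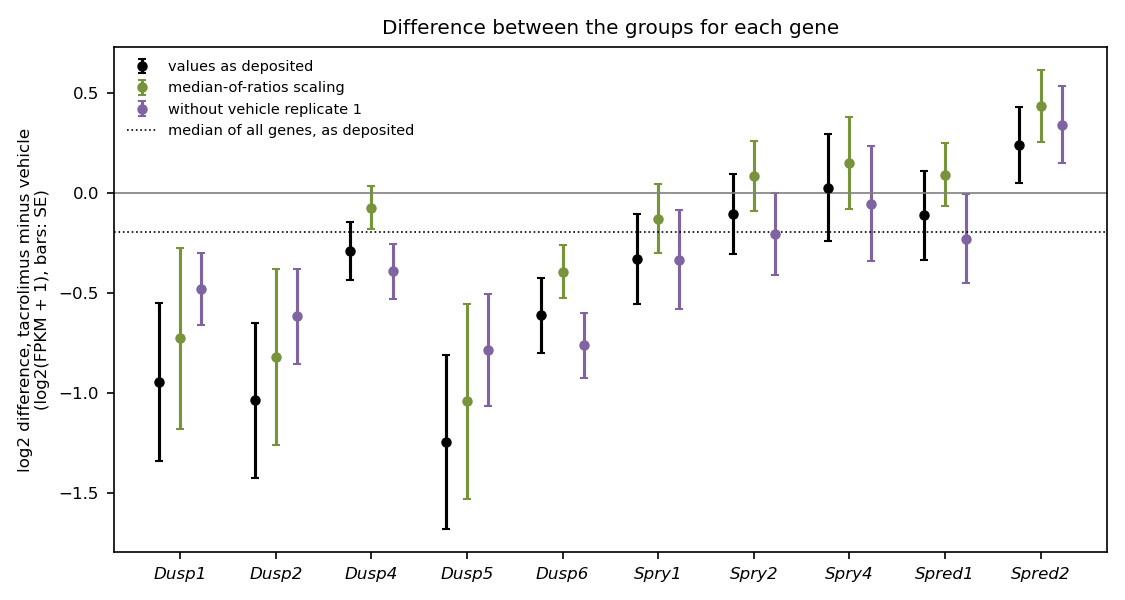
Difference between the groups for each gene (vertical axis, mean log2(FPKM + 1) of tacrolimus libraries less that of vehicle libraries, bars SE) in the values as deposited, after median-of-ratios scaling and without vehicle replicate 1. Leaving out that library brought Dusp1 to -0.48 from the main value of -0.95, while Dusp6 moved to -0.76, and the dotted line marks the median of all genes at -0.19.

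The 10 genes spanned a wide range of levels. By mean FPKM over the 8 libraries the order was Dusp1 (110), Dusp6 (68.0), Dusp2 (63.2), Dusp4 (35.3), Dusp5 (17.2), Spred1 (10.8), Spry1 (9.33), Spred2 (7.59), Spry2 (5.74) and Spry4 (1.21). Dusp1 lay at percentile 91.5 of the genes tested and Spry4 at percentile 2.89. Not every neighbour in this order was separated in each library. Dusp5 exceeded Spred1 in 4 of 8 libraries, 1 of them tacrolimus and 3 vehicle, and Spry1 exceeded Spred2 in 5 of 8, 1 tacrolimus and 4 vehicle. Dusp6 exceeded Dusp2, and Dusp2 exceeded Dusp4, in 6 of 8 libraries each, and only the last step, from Spry2 to Spry4, held in all 8.

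Across the 8 libraries Dusp1 moved with Dusp2 (Pearson r = 0.975) and Dusp5 (r = 0.958), and Dusp2 with Dusp5 (r = 0.976). Without vehicle replicate 1 these values were 0.928, 0.879 and 0.918 over 7 libraries. Dusp6 stood apart from them over 8 libraries, with r of 0.189 to Dusp1, 0.272 to Dusp2 and 0.330 to Dusp5, but not over those 7, where r was 0.814, 0.754 and 0.815. Vehicle replicate 1 was at 3.59, 3.19 and 3.66 times the mean of the other vehicle libraries for Dusp1, Dusp2 and Dusp5, but at 0.747 times for Dusp4, 0.653 for Dusp6, 0.720 for Spry2, 0.600 for Spry4 and 0.685 for Spred1, with Spry1 at 0.950 and Spred2 at 1.38 times. Dusp4 moved with Dusp6 (r = 0.854, and 0.859 without vehicle replicate 1), and Spry1 with Spred1 (r = 0.811, and 0.965 without it). Spred2 followed none of the others, with r between -0.638 and 0.304, or -0.592 and 0.439 without that library. These r used the values as deposited and were not computed after scaling. Median-of-ratios factors ran from 0.857 in tacrolimus replicate 3 to 1.23 in vehicle replicate 2, and such shifts of a whole library enter every r.

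**Figure D3:**
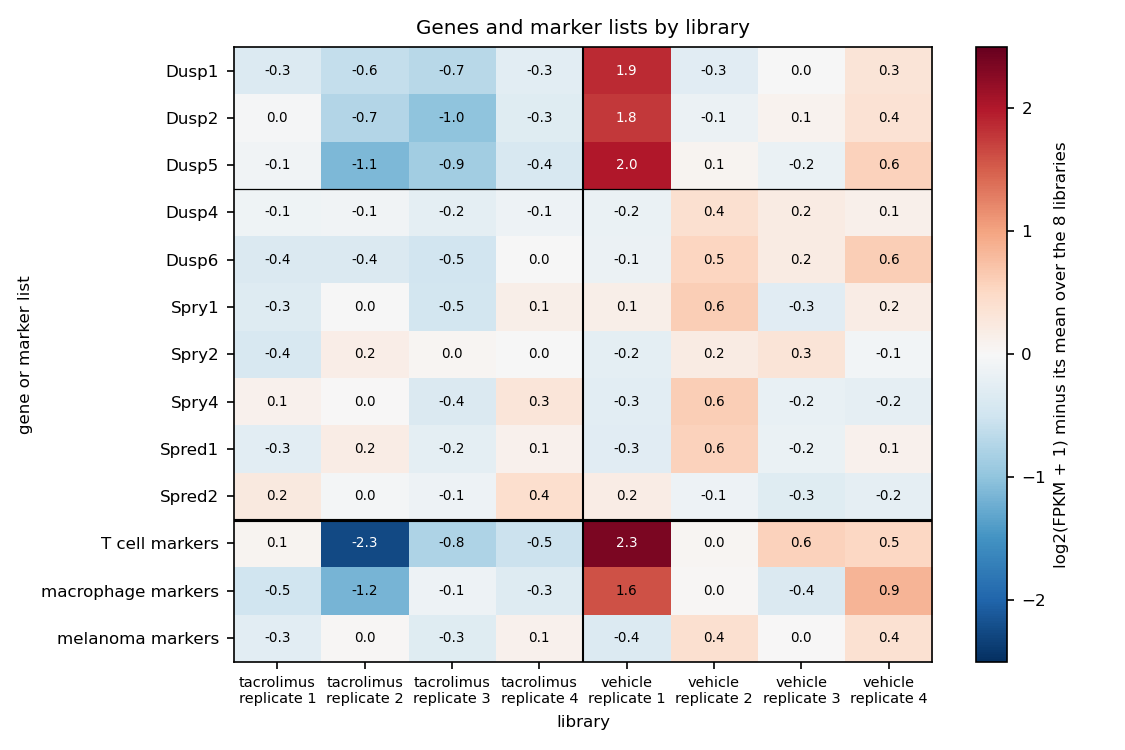
Each gene and 3 marker lists (rows) by library (columns, tacrolimus left), coloured by log2(FPKM + 1) minus its mean over the 8 libraries. Dusp1, Dusp2 and Dusp5 share with the T cell and macrophage lists shown a high value in vehicle replicate 1, whereas Dusp4, Dusp6, Spry1, Spry2, Spry4 and Spred1 lie below the other vehicle mean there.

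Levels of the 10 genes were set beside the T cell, macrophage and melanoma marker levels, each the mean log2(FPKM + 1) of its list. This gave 30 relations over 8 libraries, with exact permutation p values over all orders of the libraries and Benjamini-Hochberg adjustment over the 30. The orders ignored the treatment groups, so a difference between the groups shared by gene and markers also enters these p values. The natural killer cell, dendritic cell, neutrophil and B cell lists, also highest in vehicle replicate 1, were not set beside the genes. A relation given below is therefore not shown to be particular to its cell type. Dusp2, Dusp5 and Dusp1 were high where T cell markers were high. For Dusp2, Pearson r was 0.904 (exact permutation p = 0.00377, adjusted p = 0.0226) and Spearman rho 0.952 (exact permutation p = 0.00114, adjusted p = 0.0342). Without tacrolimus replicate 2 and vehicle replicate 1, the libraries farthest from the median T cell level, r was 0.905. Dusp5 had r = 0.934 (exact permutation p = 0.000546, adjusted p = 0.0164), rho = 0.833 (exact permutation p = 0.0154, adjusted p = 0.115) and r = 0.815 without the same 2 libraries. For Dusp1 the values were r = 0.867 (exact permutation p = 0.00193, adjusted p = 0.0166), rho = 0.857 (exact permutation p = 0.0107, adjusted p = 0.107) and r = 0.837 without them. After median-of-ratios scaling r was 0.898, 0.933 and 0.855 for Dusp2, Dusp5 and Dusp1 (exact permutation adjusted p = 0.0213 each).

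The same 3 genes also followed the macrophage level, with r of 0.833 to 0.921 (Dusp1 exact permutation adjusted p = 0.0288, Dusp2 0.0511, Dusp5 0.0166). Spearman rho was 0.619 for Dusp1, 0.524 for Dusp2 and 0.762 for Dusp5 (exact permutation adjusted p = 0.345, 0.492 and 0.196). Without vehicle replicates 1 and 4, r was 0.265 for Dusp1, 0.22 for Dusp2 and 0.619 for Dusp5, so the first 2 of these relations rested on those libraries. After median-of-ratios scaling r was 0.864, 0.822 and 0.915 for Dusp1, Dusp2 and Dusp5 (exact permutation adjusted p = 0.0641, 0.111 and 0.0255). Which cells the transcripts came from was not tested.

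Dusp6 and Spred1 were instead high where melanoma markers were high. Spred1 had r = 0.867 (exact permutation p = 0.00191, adjusted p = 0.0166), rho = 0.905 (exact permutation p = 0.00456, adjusted p = 0.0685) and r = 0.782 without vehicle replicates 1 and 2. Dusp6 had r = 0.852 (exact permutation p = 0.0102, adjusted p = 0.0438), rho = 0.738 (exact permutation p = 0.0458, adjusted p = 0.196) and r = 0.872 without those libraries. Both relations moved with the scaling. After median-of-ratios scaling r was 0.671 for Spred1 and 0.559 for Dusp6 (exact permutation adjusted p = 0.243 and 0.327). A group holds 4 libraries, too few for a value within it.

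**Figure D4:**
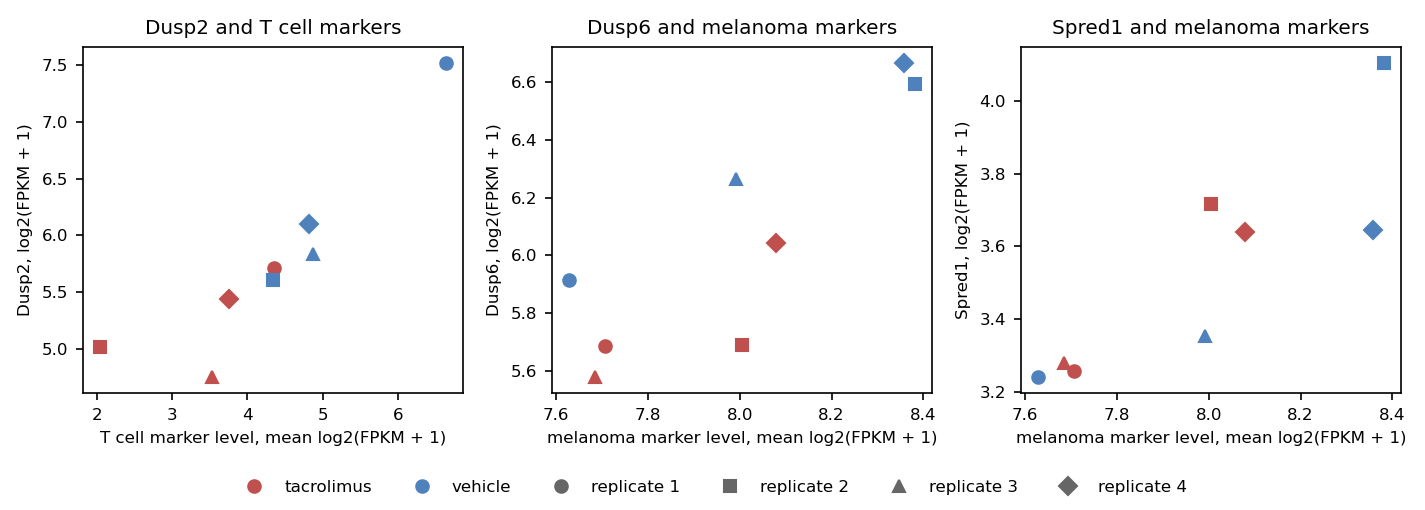
Level of Dusp2 against the T cell marker level, and of Dusp6 and Spred1 against the melanoma marker level (all log2(FPKM + 1)), with tacrolimus libraries in red, vehicle libraries in blue and shapes for the replicate. Dusp2 climbs with the T cell level across both groups (r = 0.904), and vehicle replicate 1 lies at the top right there but at the lowest melanoma level.

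With the T cell level as a covariate, the differences of Dusp1, Dusp2 and Dusp5 were -0.0054 (SE 0.38), -0.057 (SE 0.34) and -0.081 (SE 0.35). Without vehicle replicate 1 that fit gave -0.28 (SE 0.25), -0.26 (SE 0.29) and -0.27 (SE 0.31). Over all 8 libraries Dusp6 was at -0.86 (SE 0.25, limma adjusted p = 0.22) and Dusp4 at -0.50 (SE 0.19, limma adjusted p = 0.222). These were the genes of the 10 that were lower at an unadjusted p under 0.05, against 17.3% of all genes. In this fit over 8 libraries the median difference was -0.28 for all genes. It was -0.71 for the 15 melanoma markers, 9 of which were lower at that p. Without vehicle replicate 1 Dusp6 was the lower gene at that p, at -0.74 (SE 0.24), against 13.1% of all genes, and Dusp4 missed it at -0.44 (SE 0.20). Over 8 libraries the same 2 genes were lower at that p with the macrophage level as a covariate, against 11.7% of all genes. In that fit Dusp1 was at -0.12 (SE 0.35), Dusp2 at -0.31 (SE 0.39), Dusp5 at -0.26 (SE 0.34) and Dusp6 at -0.75 (SE 0.25). The same fit without vehicle replicate 1 gave -0.33, -0.51, -0.40 and -0.63. With the melanoma level as a covariate, Dusp5 was at -1.59 (SE 0.41, limma adjusted p = 0.0975), Dusp2 at -1.36 (SE 0.36) and Dusp1 at -1.30 (SE 0.35), none of them called, against 0.998% of all genes called. Dusp6 was at -0.41 (SE 0.11, limma adjusted p = 0.106) in that fit. Leaving out vehicle replicate 1 put Dusp5, Dusp2, Dusp1 and Dusp6 at -0.69, -0.57, -0.40 and -0.44. T cell levels hardly overlapped between the groups, so treatment and T cell level cannot be fully told apart in 8 libraries.

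A ratio of 2 genes within a library does not depend on the scaling, and the 45 pairs of the 10 genes were compared in this way after the values were seen. The groups did not overlap for 4 pairs, each with an exact permutation p of 0.0286 over 70 splits, the smallest possible, and an adjusted p of 0.321 over the 45 pairs. How many pairs among all genes separate the groups was not computed, and pairs that share a gene are not independent. The ratio of Dusp2 to Spred2 was 5.74, 4.36, 3.83 and 4.14 in tacrolimus replicates 1 to 4, against 21.1, 7.09, 9.53 and 10.9 in vehicle replicates 1 to 4. Dusp1 and Dusp5 against Spred2 were the next pairs, with log2 differences of -1.22 and -1.61. The fourth was Dusp6 to Spred1, at 5.89, 4.17, 5.36 and 5.67 in tacrolimus replicates 1 to 4, against 7.02, 5.90, 8.24 and 8.75 in vehicle replicates 1 to 4. None of the 45 pairs passed the adjustment, and with 4 libraries a group none could have done so unless many pairs separated the groups.

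The genes with profiles most like each of the 10 over the 8 libraries, by Pearson r on log2(FPKM + 1), are given as a description that includes vehicle replicate 1. Dusp1 was most like Ptger4 (r = 0.994), a prostaglandin E2 receptor of immune cells, and Birc2 (r = 0.991), an inhibitor of apoptosis protein. Dusp2 was most like Crlf2 (r = 0.993), a chain of the thymic stromal lymphopoietin receptor, followed by Unc13d (r = 0.986), a factor of cytotoxic granule release, and Gata3 (r = 0.985), a T cell transcription factor. For Dusp5, Xlr4c (r = 0.996) and Armc7 (r = 0.994) came first, then Ifngr1 (r = 0.993), a chain of the interferon gamma receptor. Dusp4 was most like Rpusd1 (r = 0.982) and Mthfd1 (r = 0.979), an enzyme of folate metabolism, and Dusp6 most like Tex10 (r = 0.989) and Casp9 (r = 0.985), a caspase. Spry1 was nearest to Baiap2 (r = 0.986), Spry2 to Nudt17 (r = 0.967), Spry4 to Aldh5a1 (r = 0.977), Spred1 to Ica1 (r = 0.985) and Spred2 to Usp7 (r = 0.959). With 8 points and 13032 genes, high values of r arise readily. The values were as deposited, so shifts of a whole library enter these r as well.

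Other genes of the same system were read from lists written from textbook knowledge, and none passed an adjusted p of 0.05. Among 22 transcriptional readouts of ERK activity, 17 were tested, 7 were lower at an unadjusted p under 0.05 (15.8% of all genes) and 5 were lower without overlap (10.2% of all genes). Their median log2 difference was -0.27, against -0.19 for all genes. After median-of-ratios scaling 4 were lower at that p (5.73% of all genes) and the median was -0.071. With upper-quartile scaling 3 were lower (5.29% of all genes). Egr1, an immediate-early transcription factor, was at 12.6 ± 3.30 FPKM with tacrolimus and 29.4 ± 11.5 FPKM with vehicle (SD, n = 4 each, with 23.9 FPKM for vehicle without replicate 1), which is -1.13 on the log2 scale (SE 0.28, limma adjusted p = 0.183). The immediate-early gene Ier2 was at 40.2 ± 4.93 FPKM with tacrolimus and 77.8 ± 29.8 FPKM with vehicle (63.0 FPKM without vehicle replicate 1). Fos, a subunit of AP-1, was at 279 ± 57.5 FPKM with tacrolimus and 443 ± 90.4 FPKM with vehicle, and the transcription factor Klf4 at 2.98 ± 0.73 FPKM with tacrolimus and 5.77 ± 1.46 FPKM with vehicle. The 10 tested readouts that missed that p had differences between -0.93 for Plaur and 0.25 for Epha4, 2 genes named after their values were seen. Junb was listed at 0 in all 8 libraries, and whether this reflects its expression or the counting was not tested.

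Of the other classical phosphatase, Sprouty and Spred genes, 4 of 8 were tested. Dusp10, a phosphatase of JNK and p38, was at 2.01, 2.70, 1.55 and 2.24 FPKM in tacrolimus replicates 1 to 4, against 8.76, 3.66, 3.09 and 4.62 FPKM in vehicle replicates 1 to 4, without overlap (log2 difference -0.88, SE 0.28, limma adjusted p = 0.202), and it was the 1 of these 4 genes lower at an unadjusted p under 0.05, against 15.8% of all genes. Dusp7, a cytoplasmic relative of Dusp6, ranged from 4.75 to 7.86 FPKM with tacrolimus and from 4.94 to 10.5 FPKM with vehicle (log2 difference -0.41). Dusp8 and Dusp16, which act on JNK and p38, had differences of -0.29 and 0.15. Of 14 small atypical phosphatases 8 were tested, with a median of -0.12, and Dusp14, a regulator of T cell receptor signaling in mice, was the 1 gene lower at an unadjusted p under 0.05, against 15.8% of all genes. It was at 3.04 ± 1.33 FPKM with tacrolimus and 7.79 ± 5.11 FPKM with vehicle (5.60 FPKM without vehicle replicate 1). After median-of-ratios scaling none of the 8 was lower at that p and 2 were higher, against 5.73% and 5.46% of all genes.

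The cascade itself lay near the bulk of genes. Of 19 genes from adaptors to ERK, 18 were tested, with a median of -0.21, and Rasgrp1 and Map2k2 were the 2 genes lower at an unadjusted p under 0.05, against 15.8% of all genes. After median-of-ratios scaling 0 of the 18 were lower at that p, against 5.73% of all genes. Rasgrp1, a Ras exchange factor prominent in lymphocytes, averaged 1.35 ± 0.91 FPKM with tacrolimus and 4.58 ± 3.57 FPKM with vehicle (2.80 FPKM without vehicle replicate 1). Of 14 JNK and p38 genes 13 were tested, with a median of -0.21, and the p38 activator Map2k3 was the 1 gene lower at an unadjusted p under 0.05, against 15.8% of all genes (49.8 ± 6.17 FPKM with tacrolimus and 69.4 ± 9.02 FPKM with vehicle). Map2k3 and Mapk9, a JNK gene named after its values were seen, were lower without overlap, against 10.2% of all genes.

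Among 11 other restraints on Ras and receptor signaling, 9 were tested, 3 were lower and 1 was higher at an unadjusted p under 0.05, against 15.8% and 1.6% of all genes. After median-of-ratios scaling 1 was lower and 1 higher, against 5.73% and 5.46% of all genes. The higher gene was Nf1, which encodes neurofibromin, the partner of Spred proteins. It was at 48.2, 33.2, 32.1 and 42.4 FPKM in tacrolimus replicates 1 to 4, against 29.5, 20.0, 28.2 and 25.8 FPKM in vehicle replicates 1 to 4, without overlap (log2 difference 0.57, SE 0.18, limma adjusted p = 0.201). The lower genes were Rasal3, a Ras GTPase-activating protein of blood cells (5.44 ± 3.14 FPKM with tacrolimus and 16.5 ± 10.4 FPKM with vehicle, or 11.4 FPKM without vehicle replicate 1), and the ubiquitin ligases Cblb and Cbl. Cblb was at 9.07, 3.42, 5.17 and 7.18 FPKM in tacrolimus replicates 1 to 4, against 46.7, 9.12, 9.89 and 13.7 FPKM in vehicle replicates 1 to 4, and its vehicle mean was 10.9 FPKM without vehicle replicate 1.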

How the data were processed

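RNA sequencing libraries of 8 mice were compared, 4 tacrolimus and 4 vehicle, grouped by sample title. Nothing states more than 1 library a mouse. The labels' protocols give Trizol for RNA. In the submitters' processing notes HISAT2 2.1.0, RSEM 1.3.1, DESeq2 1.24.0 and GRCm38.p6 are named without role or order. The deposited files hold 1 value a gene to 2 decimals, with no unit named. The unit was inferred to be FPKM, scaled by the authors for length and depth, since sums ran from 890182 to 926808 and low values of single-transcript genes of 500 to 1500 bases fell at steps set by length. Between 86.1% and 87.8% lay within 0.15 steps of a whole multiple, where even spread gives 30.0%. The steps correspond to an estimated 15625000 to 19417000 fragments a library. Among genes with a mean of 1 FPKM or more, at most 0.259% had identical values above 0 in any pair of libraries.

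Genes at 1 FPKM or more in at least 4 libraries were compared on log2(FPKM + 1) with limma 3.58.1 (trend) in R 4.3.3, treatment as the only term, with Benjamini-Hochberg adjustment over 13032 genes. The script was tested on simulated data. Correlations, exact permutation tests and plots used Python 3.11.15. Coordinates are those of GENCODE M21. Promoters are those of RefSeq, build GRCm38.p6, less the bases after the start. Named beyond the 10 genes were at most 4 genes a list with the smallest unadjusted p, the genes of closest profile, and those marked as chosen after their values were seen. The genes and lists were chosen with earlier results of these data known. Alternatives were other pseudocounts, filters, scalings, variance models, covariates, a replicate block, and omission of single libraries.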

Additional observations from a re-analysis of the deposited data

Results flagged for a closer look

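Among 68 sets of 4 libraries of a named gene, 9 had a library far from the other 3. The limit used flags about 1 in 20 sets of independent, normally distributed values. These sets share libraries, and many of the genes were named by their p in these data. That rate is therefore not the chance rate here, and no excess is shown. For the 10 feedback genes there were 3: vehicle replicate 1 at 334 FPKM of Dusp1, against 74.3 to 114 in the rest of the vehicle group, the same library at 182 FPKM of Dusp2, where they lay between 47.9 and 67.7, and vehicle replicate 2 at 2.31 FPKM of Spry4, where they lay between 0.81 and 0.89. Vehicle replicate 1 also stood out at 9.94 FPKM of Rasgrp1, 46.7 FPKM of Cblb and 122 FPKM of Ier2. Tacrolimus replicate 3 stood out high at 7.52 FPKM of Cbl and low at 7.68 FPKM of Egr1 and 32.9 FPKM of Ier2. In the values as deposited it also had the lowest level of the 4 tacrolimus libraries for Dusp1, Dusp2, Dusp4, Dusp6, Spry1, Spry4 and Spred2. Its median-of-ratios factor, 0.857, was the lowest of the 8 libraries. A shift of the whole library thus enters these levels, and they are not shown to be particular to these genes.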

How the results depend on the processing

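No gene of the 10 passed an adjusted p of 0.05 under any of 25 alternatives. Dusp1, Dusp2, Dusp4, Dusp5, Dusp6 and Spred2 kept their direction in all 25. Spry2 turned to 0.082 with median-of-ratios scaling, 0.11 with upper-quartile scaling, 0.0087 without tacrolimus replicate 1 (-0.205 to 0.0087 over the left-out libraries) and 0.023 with median-of-ratios scaling without vehicle replicate 1. Spred1 turned to 0.091, 0.12 and 0.018 under those 3 scalings, 0.10 with the melanoma covariate and 0.060 without vehicle replicate 2 (-0.23 to 0.060). Spry4 turned to -0.15 and -0.17 with the T cell and macrophage covariates and to -0.054, -0.033 and -0.044 without vehicle replicates 1, 3 and 4 (-0.054 to 0.15). It was too low to test in 5 alternatives. With a covariate and without vehicle replicate 1, Spry4 turned to -0.0998 (T cell) and -0.16 (macrophage), and Spry1 and Spred1 to 0.26 and 0.24 (melanoma). These fits were chosen after the data were seen. The cause was not tested.

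The count of the 10 genes lower at an unadjusted p under 0.05 was 4 in the values as deposited, against 15.8% of all genes. It was 1 under median-of-ratios and upper-quartile scaling, against 5.73% and 5.29%. With the first scaling and without vehicle replicate 1 it was 1, against 4.8%. It was 2 with the T cell or macrophage covariate, against 17.3% and 11.7%. With a library left out it was 2 to 5, where 1308 to 2465 of 12759 to 12858 genes tested were lower at that p. Without vehicle replicate 1 it was 1, 2 and 1 with the T cell, macrophage and melanoma covariates, against 1678, 1144 and 480 of 12769 genes. The count higher was 1 under those 3 scalings, against 5.46%, 5.72% and 6.96% of all genes. Lower without overlap were 0 to 2 of the 10 genes with a library left out, where 1501 to 2439 of all genes were. Without vehicle replicate 1 this number was 2, against 19.1% of all genes. With median-of-ratios scaling and without that library it was 1, against 759 of 12751 genes. Higher without overlap was 1 without that library under either scaling, against 1.61% of all genes as deposited and 788 of 12751 with median-of-ratios scaling. Over the left-out libraries it was 0 to 1, against 119 to 206 of all genes. The 0 calls over all genes became 121 with the replicate block, 130 with the melanoma covariate and 0 to 1 with a library left out, and 1 without vehicle replicate 1 with median-of-ratios scaling or with the T cell or macrophage covariate. Of all genes, 208 passed that p toward higher and 2056 toward lower values. These counts were 710 and 746 with median-of-ratios scaling, 746 and 690 with upper-quartile scaling, and 887 and 612 with the first scaling without vehicle replicate 1. The higher count was 426 with no filter, 331 with the T cell covariate and 134 to 285 with a library left out, and the lower count 1308 to 2465 with a library left out, and 1144 and 480 with the macrophage and melanoma covariates without vehicle replicate 1.

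The r of deviations between groups was 0.215, 0.277, -0.02 and -0.022 for equal replicate numbers 1 to 4. For unequal numbers it ran from -0.324 to 0.155. The first 2 equal numbers lay above that range and the others within it, so these values do not settle whether replicate numbers pair the samples. With the replicate block, the limma adjusted p was 0.0687 for Dusp5, 0.0814 for Dusp2, 0.102 for Dusp6 and 0.166 for Dusp1. Spry4 lay close to the minimum of 1 FPKM, which limits what its values show.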
